A study of Mus musculus with 50 samples.

Results

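UDP-glucuronosyltransferases (UGT), glutathione S-transferases (GST) and cytosolic sulfotransferases (SULT) are conjugating enzymes of detoxification. Their genes were followed through every RNA-seq group of the series. Members were all gene names of the count files that begin with Ugt and a digit, with Gst, a letter and a digit, or with Sult and a digit, which gave 64 of 24984 genes: 21 UGT, 22 GST and 21 SULT genes. By family these were 8 UGT1A, 10 UGT2, 2 UGT3 and 1 UGT8 gene, 4 GSTA, 7 GSTM, 3 GSTP, 4 GSTT and 4 other GST genes (Gstk1, Gsto1, Gsto2, Gstz1), and 6 SULT1, 9 SULT2 and 6 other SULT genes. The rule used names alone and no measured value.

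The series measured RNA in 38 libraries of 10 groups and open chromatin by ATAC-seq, in which a transposase cuts accessible DNA, in 12 libraries of 4 groups. Untreated C57BL/6 mice of 2.5 months (young) and of 23 to 25 months (old) gave kidney and liver RNA, 4 libraries per tissue and age, and kidney and liver ATAC-seq, 3 libraries per tissue and age. Other C57BL/6 mice, of 20 to 21 months, gave kidney and liver RNA after DMSO, the control, or after an agent that the labels call 3C and do not describe further, 4 libraries per tissue and treatment. C57BL/6 skin fibroblasts labelled P9 were given DMSO or 3C, 3 libraries each. The study's methods state that the young and old mice were female. No library of kidney or liver held a count of any of 4 Y-linked genes, whereas all 6 fibroblast libraries did (Ddx3y at 31.4 to 43.0 CPM, gene counts scaled to the library size) beside Xist at 65.6 to 84.8 CPM, so the fibroblast libraries held transcripts of both kinds. Nothing in the labels says whether libraries of a group came from separate animals or cultures, so the p-values measure the spread between these libraries.

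The 3 enzyme classes make lipophilic compounds soluble by attaching a polar group. UGTs transfer a sugar, mostly glucuronic acid from UDP-glucuronate, to bilirubin, steroids, bile acids and drugs in the endoplasmic reticulum. GSTs join glutathione to electrophiles, mostly in the cytosol. SULTs transfer sulfate from the donor PAPS to phenols, steroids and bile acids. Liver is the main site of all 3 reactions and kidney carries a narrower set of enzymes. The Ugt1a genes share one locus in which each member has its own promoter and first exon, spliced to common later exons, and the Sult2a genes lie as a cluster of close copies.

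Promoter sequences of 6 members are shown because these genes stand at the centre of the tissue and age differences described here: 3 first exons of the Ugt1a locus with opposite tissue use, and 3 genes of the Sult2a cluster, Sult2a3, called higher in old liver, Sult2a8, called lower, and Sult2a5, which did not pass. Each runs 5′ to 3′ on the gene's strand from 250 bases before to 50 bases after a RefSeq start site (GRCm38.p6), and capitals mark GTTAAT or its reverse complement ATTAAC, the half-site of HNF1, a factor of liver and proximal tubule. The windows are chr1:88200361-88200660 (Ugt1a2, + strand), chr1:88165762-88166061 (Ugt1a5, + strand), chr1:88211709-88212008 (Ugt1a1, + strand), chr7:14122999-14123298 (Sult2a3, - strand), chr7:13623717-13624016 (Sult2a5, + strand) and chr7:14446538-14446837 (Sult2a8, - strand, the outer of its RefSeq starts).
Ugt1a2: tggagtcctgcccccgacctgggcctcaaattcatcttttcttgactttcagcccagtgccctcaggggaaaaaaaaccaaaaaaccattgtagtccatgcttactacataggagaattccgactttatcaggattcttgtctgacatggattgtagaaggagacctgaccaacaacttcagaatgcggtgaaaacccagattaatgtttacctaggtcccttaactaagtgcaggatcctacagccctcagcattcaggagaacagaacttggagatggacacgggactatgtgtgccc
Ugt1a5: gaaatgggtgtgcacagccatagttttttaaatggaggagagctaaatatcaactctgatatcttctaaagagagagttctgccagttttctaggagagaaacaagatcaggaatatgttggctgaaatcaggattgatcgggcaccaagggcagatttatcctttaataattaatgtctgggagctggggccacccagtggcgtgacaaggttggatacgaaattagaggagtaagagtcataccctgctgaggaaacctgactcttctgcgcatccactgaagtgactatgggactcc
Ugt1a1: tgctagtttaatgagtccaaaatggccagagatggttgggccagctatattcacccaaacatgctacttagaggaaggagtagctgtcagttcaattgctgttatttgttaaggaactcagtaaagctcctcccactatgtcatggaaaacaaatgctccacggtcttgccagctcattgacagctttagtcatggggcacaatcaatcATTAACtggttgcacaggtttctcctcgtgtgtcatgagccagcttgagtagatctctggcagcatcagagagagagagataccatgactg
Sult2a3: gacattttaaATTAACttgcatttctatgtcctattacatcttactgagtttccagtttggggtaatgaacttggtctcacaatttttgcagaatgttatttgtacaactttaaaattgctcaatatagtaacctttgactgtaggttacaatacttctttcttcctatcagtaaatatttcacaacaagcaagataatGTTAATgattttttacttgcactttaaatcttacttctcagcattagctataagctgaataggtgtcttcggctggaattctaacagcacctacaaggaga
Sult2a5: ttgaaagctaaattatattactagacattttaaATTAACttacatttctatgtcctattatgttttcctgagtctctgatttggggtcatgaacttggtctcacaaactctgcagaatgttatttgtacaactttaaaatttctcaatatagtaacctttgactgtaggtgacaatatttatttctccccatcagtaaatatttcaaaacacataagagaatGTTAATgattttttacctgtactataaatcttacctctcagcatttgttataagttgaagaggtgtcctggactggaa
Sult2a8: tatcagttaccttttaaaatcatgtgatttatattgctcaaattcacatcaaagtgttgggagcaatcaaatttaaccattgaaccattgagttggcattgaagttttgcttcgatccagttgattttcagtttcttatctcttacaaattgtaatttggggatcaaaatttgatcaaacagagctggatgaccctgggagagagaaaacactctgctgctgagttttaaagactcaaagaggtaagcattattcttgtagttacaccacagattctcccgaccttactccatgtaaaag
RefSeq promoters were found for 56 of the 64 members, 67 sequences in all. Of these, 14 (20.9%) held GTTAAT on either strand, against 7.1% of 32851 promoters of the same length. The windows of Sult2a3 and Sult2a5 each held it 2 times and that of Ugt1a1 1 time, and the windows of Ugt1a2, Ugt1a5 and Sult2a8 did not hold these letters. Other member windows with the half-site were those of Ugt1a6a, Ugt1a9, Ugt1a10, Ugt2a3, Ugt3a1, Gsta3, Sult1a1, Sult1d1, Sult2a4, Sult2a6 and Sult3a2. The core of the antioxidant response element, TGACNNNGC on either strand, was in 3 member windows (4.48%) against 12.4% of all promoters, and TATAAA in 15 (22.4%) against 13.6%. These are matches of letters and not measured binding.

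Libraries held 14238228 to 43704147 gene counts, of which members took 0.453 to 0.681% in kidney, 0.726 to 1.299% in liver and 0.167 to 0.232% in fibroblasts. A set of 15 hepatocyte genes (Alb, Apoa1, Ttr and others) stood at a median of 0.0173 to 0.0631% of their liver level in 15 of 16 kidney libraries and at 1.09% in old kidney 2, where Alb was 1790 CPM against 7.23 to 59.6 CPM elsewhere in kidney. Old kidney 2 was also the highest of the 8 young and old kidneys for 19 of the 36 members that were higher in young liver than in young kidney. Old kidney values that this library decides are given with and without it. The tallies of unaligned and of multiply aligned reads were 0 in every library of the treated mice and the fibroblasts, and above 0 in those of the young and old mice. The libraries thus seem to have been handled differently before counting, which the labels do not say. Levels are not compared between these 3 sets.

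Close copies limit what a single count means. Reads that fit several genes were left out of the counts, and the share of a gene's 75-base stretches found in another gene was 84.7% for Gsta1, 50.1% for Gstp2, 47.2% for Sult2a2, 36.6% for Gsta2, 30.4% for Ugt2b5, 28.0% for Ugt2b38 (mostly shared with Ugt2b5), 25.6% for Sult2a5 and 19.5% for Sult2a1. It was 1.8% for Sult2a3 and 0 for Sult2a7, Sult1e1 and Ugt2b1. In the Ugt1a genes 51.2 to 74.8% was shared, so their counts came from the stretches that each gene has to itself, the first exon and, in the annotation used here, also a longer end in Ugt1a7c. The exons of Ugt2a1 and Ugt2a2 overlap almost wholly, and these 2 genes had 0 counts in every library. Sult1c1 had 1 count, in 1 library.

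The member with the highest level differed between kidney, liver and fibroblasts, while Gstm1 stood high in both kidney and liver. Per kilobase of exon that belongs to the gene alone, the Ugt1a genes left out because the annotation used here leaves them 222 to 1913 such bases and need not match the one counted, the highest mean level in young kidney was that of Gsta2, an alpha-class GST, at 613.3 CPM per kb, followed by Ugt3a2 at 410.3, Gstm1 at 271.8 and Sult1d1, a catecholamine sulfotransferase, at 251.1 CPM per kb. In young liver the order was Gsta3 at 1767 CPM per kb, Gstm1 at 1305 and Gstz1, an enzyme of tyrosine breakdown, at 666.5 CPM per kb. In old liver Sult2a2 (1539 CPM per kb) and Sult2a1 (1430 CPM per kb), hydroxysteroid sulfotransferases, stood next after Gsta3 (1589 CPM per kb). In the DMSO mice Gstm1 led in liver, at 2016 CPM per kb before Gsta3 at 1339. In kidney of these mice Gstm1 (314.2 CPM per kb) came next after Gsta2 (341.7 CPM per kb). In fibroblasts given DMSO, Gsto1, an omega-class GST that acts as a thiol transferase, led with 1241 CPM per kb and the next, Gstm2, was at 191.4 CPM per kb. A mean of at least 10 CPM was reached by 24 of 64 members in young kidney and 42 in young liver. In the DMSO fibroblasts, a set scaled apart, 12 members reached it and 32 had 0 counts.

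**Figure D1:**
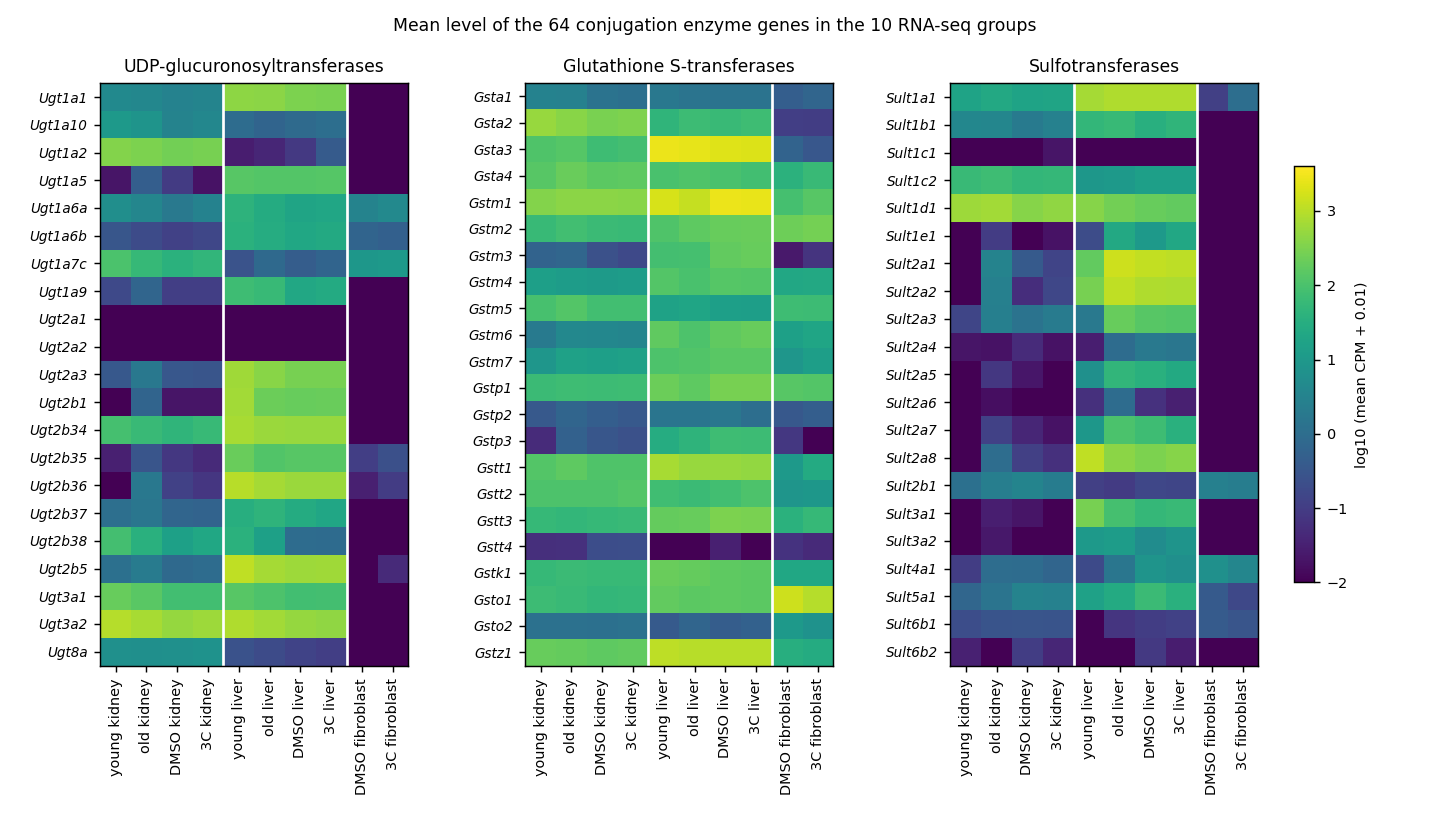
Mean level of the 64 genes (rows) in the 10 RNA-seq groups (columns), coloured by log10 of mean CPM plus 0.01. Most UGT2 and SULT2 genes are bright in the liver columns and dark in kidney, and Ugt1a2 and Ugt1a7c show the opposite order. The fibroblast columns are dark for most UGT and SULT genes but not for many of the GST genes, Gsto1 being the brightest.

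Kidney was compared with liver in the young mice and, apart from them, in the mice given DMSO. In young mice 10 members were higher in kidney and 36 lower of 53 tested (edgeR quasi-likelihood test, Benjamini-Hochberg adjusted p under 0.05 and more than 2-fold), against 25.7% of all genes tested higher and 16.9% lower. In the DMSO mice 10 were higher and 40 lower of 56 tested (26.6% and 15.7% of all genes). The 10 kidney genes were the same in both sets and 35 liver genes were shared, with 0 opposite calls. The liver genes called in the DMSO mice alone were Gstm2, Sult1e1, Sult2a3, Sult2a4 and Sult4a1, and in the young mice alone Sult3a2. Of these, only Gstm2 was tested in both sets, the other 5 having too few counts for a test in the other set. Summed over each family, 10 of 12 families were lower in kidney without overlap of libraries in both sets, UGT8 was higher and UGT3 overlapped.

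The Ugt1a locus was divided between the tissues. Ugt1a2 stood at 399.1, 384.3, 358.5 and 346.7 CPM in the 4 young kidneys and at 0, 0, 0.0746 and 0 CPM in the 4 young livers, 38306 counts against 1 (ratio 46488, 95% interval of the counts 8343 to 1836239). Ugt1a5 had the reverse, with 175.9, 161.2, 135.1 and 100.4 CPM in young liver and 1 count in all young kidneys together against 8548. Ugt1a1, the bilirubin-conjugating enzyme, was 442.3, 508.2, 472 and 357.6 CPM in young liver and 4.4, 5.65, 3.4 and 5.14 CPM in young kidney (log2 fold change of kidney over liver -6.57, SE 0.21, adjusted p = 1.55e-10). Ugt1a7c was 90 to 120.4 CPM in young kidney and 0.0603 to 0.387 CPM in young liver (log2 fold change 8.6, SE 0.27, adjusted p = 1.35e-10), and Ugt1a10 also stood higher in kidney (3.44, SE 0.36, adjusted p = 4.34e-06). No library of one tissue reached the range of the other for any of these 5 genes. Of the remaining 3, Ugt1a6a (log2 fold change -2.87), Ugt1a6b (-6.87) and Ugt1a9 (-8.71) were lower in kidney. In the DMSO mice the 8 genes had the same directions, with Ugt1a2 at 165 to 314.3 CPM in kidney and 0 to 0.149 CPM in liver.

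The UGT2 genes, which glucuronidate steroids and bile acids, were mostly liver genes. Ugt2b36 was 893.7, 787.5, 813.7 and 1487 CPM in young liver and had 0 counts in young kidney, at least 15825-fold higher when 3 counts over the kidney group are taken as the floor. Ugt2b1 was 494 to 779.4 CPM in young liver and had 0 counts in young kidney (at least 10502-fold higher in liver), and Ugt2b35 had 12578 counts against 2. Ugt2b5 (log2 fold change of kidney over liver -10.00, SE 0.41, adjusted p = 8.01e-10), Ugt2a3 (-10.74, SE 0.36, adjusted p = 1.75e-10) and Ugt2b34 (-3.05, SE 0.14, adjusted p = 2.02e-09) were also lower in kidney. Ugt2b38 alone among the 8 UGT2 genes tested was higher in kidney, at 71.1, 90.7, 102.7 and 74.5 CPM against 27.2, 34.5, 52.2 and 38.2 CPM in young liver (log2 fold change 1.15, SE 0.19, adjusted p = 2.33e-04). In the DMSO mice the same gene was 12.3 to 18.8 CPM in kidney and 0.499 to 1.82 CPM in liver (log2 fold change 4, SE 0.30, adjusted p = 1.77e-07).

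The other UGT families did not follow the liver pattern. Ugt3a2, which uses UDP-glucose or UDP-xylose, was 845.7 to 1048 CPM in young kidney and 705.6 to 958 CPM in young liver, with overlapping libraries (log2 fold change 0.18, SE 0.15, adjusted p = 0.32), and 469 to 585 against 430.7 to 564.2 CPM in the DMSO mice (0.01, SE 0.12, adjusted p = 0.926). Ugt3a1, which uses UDP-N-acetylglucosamine, passed the adjusted p in young mice without a 2-fold difference (0.51, SE 0.16, adjusted p = 0.0135). Ugt8a, the ceramide galactosyltransferase known from myelin, was 5.51 to 8.47 CPM in young kidney and 0.0603 to 0.451 CPM in young liver (log2 fold change 4.74, SE 0.41, adjusted p = 6.62e-07).

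Among GSTs, each class held both kinds except GSTP and GSTT. Gsta3 was 2066 to 3548 CPM in young liver against 94.3 to 152.6 CPM in young kidney (log2 fold change -4.59, SE 0.25, adjusted p = 1.05e-08), whereas Gsta2 was 473, 500.6, 486.4 and 674.2 CPM in kidney against 44.9, 41.4, 6.86 and 94.1 CPM in liver (3.5, SE 0.56, adjusted p = 1.55e-04). Young liver 3 was the lowest of the livers for Gsta2, and the groups did not overlap. Gsta4, whose product handles lipid peroxidation aldehydes, did not pass in young mice (0.55, SE 0.24, adjusted p = 0.0622). Of 7 GSTM genes, Gstm5 was higher in kidney (92.7 ± 24.3 CPM against 17 ± 5.52 CPM, SD, n = 4; log2 fold change 2.45, SE 0.25, adjusted p = 3.31e-06) and 5 were lower in kidney, led by Gstm3 (-7.14) and Gstm6 (-6.35, SE 0.23, adjusted p = 3.18e-10). Gstp1, Gstp2 and Gstp3 were all lower in kidney, Gstp3 with the largest difference (-9.31, SE 0.37, adjusted p = 6.11e-10). Gstt1 (-2.55), Gstt3 (-1.79), Gstz1 (-2.52), Gstk1 (-1.90) and Gsto1 (-1.36) were lower in kidney by smaller amounts, and Gsto2 was higher (1.67, SE 0.60, adjusted p = 0.0279) at a mean of 1.19 against 0.371 CPM.

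Of 21 SULT genes 13 were tested, and 10 of these were lower and 2 higher in young kidney than in young liver. Sult2a8, which sulfates bile acids in mouse liver, was 929.1, 1209, 1213 and 1256 CPM in young liver and had 0 counts in young kidney, at least 18523-fold higher in liver. By the same floor Sult2a2 was at least 4566-fold, Sult3a1, an amine sulfotransferase, at least 4407-fold and Sult2a1 at least 2847-fold higher in young liver. Sult1a1, a phenol sulfotransferase, was 614.4 to 831.4 CPM in liver and 13.9 to 20.4 CPM in kidney (log2 fold change -5.33, SE 0.20, adjusted p = 4.36e-10). Sult1c2 (56 to 65.7 against 4.1 to 12.5 CPM; 2.73, SE 0.27, adjusted p = 2.23e-06) and Sult2b1, which sulfates cholesterol (0.79 to 1.85 against 0 to 0.226 CPM; 3.44, SE 0.63, adjusted p = 4.43e-04), were the kidney genes of this class. Sult1d1 was abundant in both tissues at 508.6 to 846 CPM in young kidney and 227 to 509.1 CPM in young liver, and it passed the adjusted p but not the fold (0.67, SE 0.25, adjusted p = 0.0312).

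**Figure D2:**
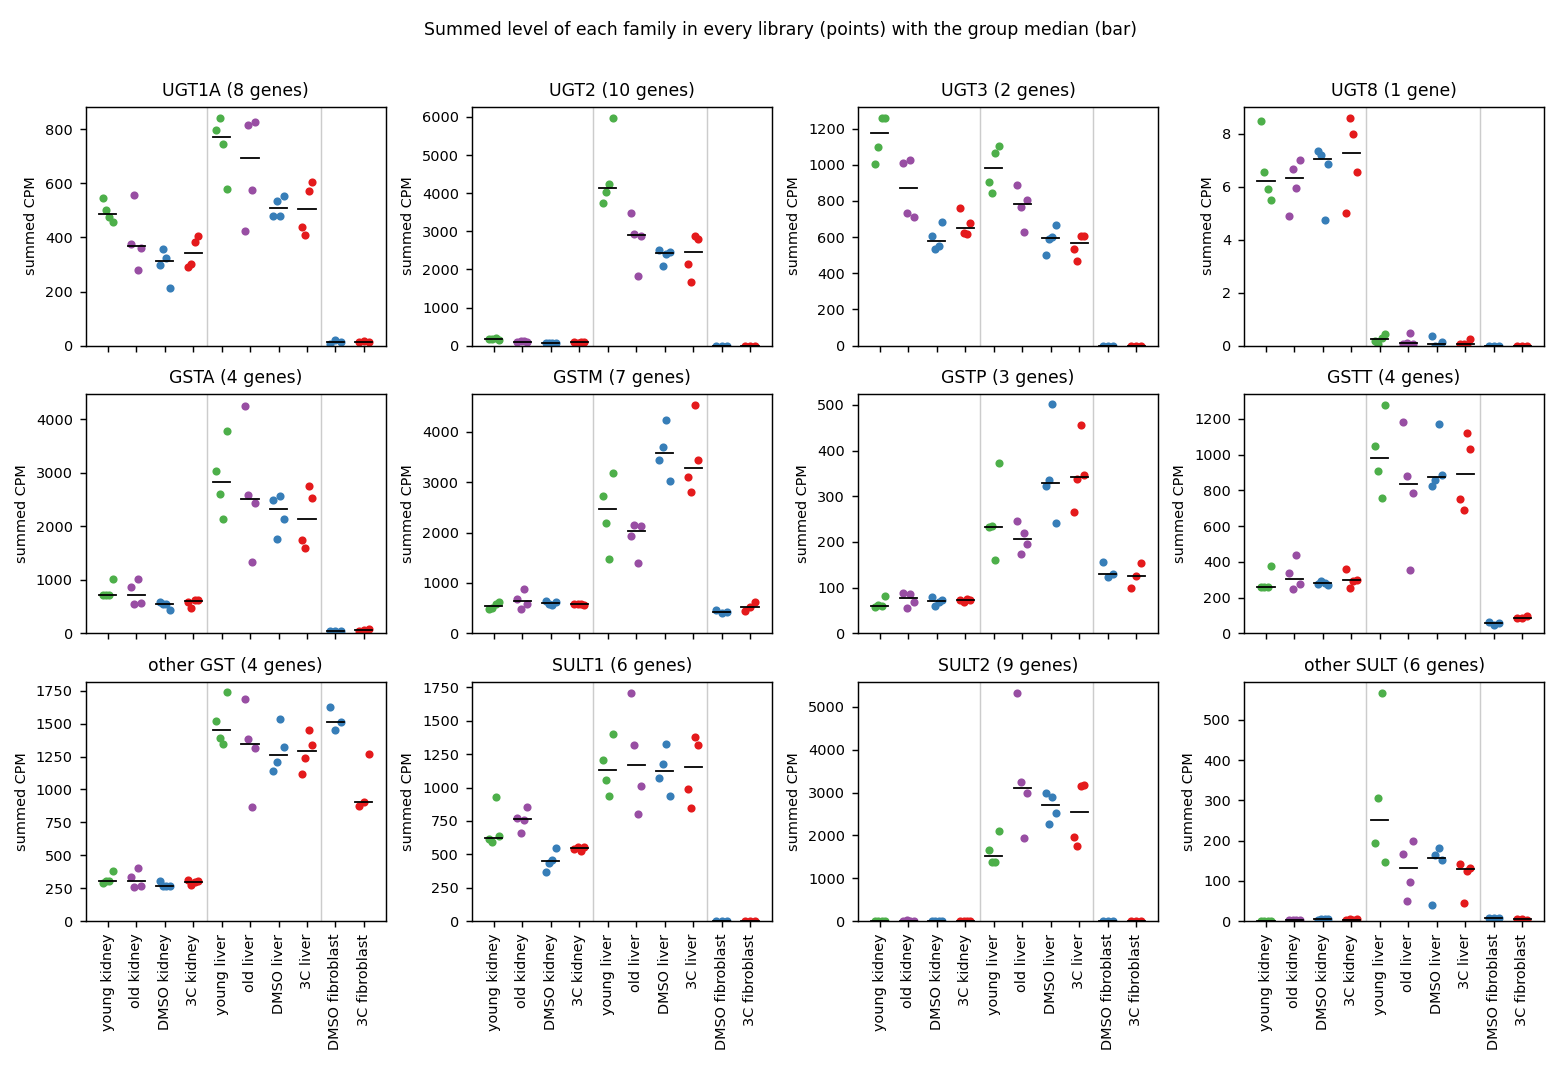
CPM summed over the genes of each family in every library (points) with the group median (bar), on linear axes that start at 0, for the 10 RNA-seq groups. The fibroblast, treated and age sets were scaled apart. Within the age and treated sets UGT2 and SULT2 sums are high in liver and low in kidney, UGT3 sums overlap between kidney and liver, and the UGT2 sums of old kidney and old liver lie below those of the young groups.

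The enzymes that supply and follow conjugation were read from lists of pathway genes. The list of UDP-sugar and sulfate donor supply also holds sulfate transporters and Bpnt1. Of its 11 genes 4 were higher and 6 lower in young kidney than in young liver. Papss1 was among the higher and Ugdh, the UDP-glucose dehydrogenase, among the lower. Of 7 tested genes of the mercapturate pathway, which trims glutathione conjugates, 4 were higher in young kidney (Ggt1, Dpep1, Nat8 and Acy3) and 0 lower. Of 8 conjugate exporters 4 were higher and 3 lower, and of 18 xenobiotic regulators 1 was higher (Maf) and 10 were lower, Ahr, Nr1i2 and Nr1i3 among them. Of all genes tested in this comparison 25.7% were higher and 16.9% lower in kidney.

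In aged kidney few members differed: Sult2a3 was higher, Ugt2b38 lower, and Gstm6 and Sult4a1 were called higher in only some of the fits run. Of 41 members tested 3 were higher and 1 lower in old than in young kidney, against 5.68% of all genes higher and 0.407% lower. The median log2 fold change of the tested members was 0.22, beside 0.02 for all genes, and 14 of the 41 had an unadjusted p under 0.05, as did 30.1% of all genes. The libraries of the 2 ages did not overlap for 7 members that were higher and 3 that were lower in old kidney, against 9.48% and 10.1% of all genes. Without old kidney 2 the median was 0.19 and 9 members were higher and 6 lower without overlap, against 13.7% and 19% of all genes. In bulk tissue fewer cells of a type and less RNA per cell cannot be told apart.

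The sulfotransferase Sult2a3 was at the edge of detection in young kidney, with 0, 0.254, 0.0501 and 0.247 CPM, and stood at 2.7, 3.43, 2.87 and 1.18 CPM in old kidney, 15 counts in all against 385. All 4 old kidneys were above all 4 young ones (log2 fold change 4.16, SE 0.66, adjusted p = 0.00405), and the call held in all 14 alternative fits, with 3.95 when old kidney 2 was left out. Old kidney 2 was not set apart from old kidneys 1 and 3 for this gene. Sult2a1, Sult2a2 and Sult2a8 by contrast were 12.8, 10.7 and 3.75 CPM in old kidney 2 and at most 0.198 CPM in the other 3, and Sult2a1 and Sult2a8 there stood at 0.876% and 0.906% of their old liver level, beside 1.09% for the hepatocyte genes. The SULT2 family sum was 32.6 CPM in old kidney 2, 4.22 to 5.92 CPM in the other old kidneys and 0.79 to 2.14 CPM in the young, so that the groups did not overlap with or without it. Of 64 members, 14 had 0 counts in the young kidneys and 4 in the old, and 12 in the old without that library.

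Gstm6, a mu-class GST, was 1.99, 2, 1.65 and 2.59 CPM in young and 2.63, 4.9, 4.79 and 4.11 CPM in old kidney (log2 fold change 1.06, SE 0.26, adjusted p = 0.028). The lowest old kidney was just above the highest young one. Its call was lost in 7 of 14 alternative fits: under the replicate block (adjusted p = 0.068) and without any of young kidneys 1, 2 and 3 or old kidneys 2, 3 and 4 (log2 fold change 0.94 to 1.04). Gstm7 (8.61 ± 1.77 to 15.9 ± 3.00 CPM, SD, n = 4; 0.93, adjusted p = 0.0101) passed the adjusted p without the fold, and 6 of 7 GSTM genes had a positive fold change, 5 of 7 without old kidney 2, where Gstm3 was -0.13. Sult4a1, a SULT known from brain, was 0.339, 0.0317, 0 and 0 CPM in young and 0.49, 0.975, 0.429 and 1.98 CPM in old kidney (3.40, SE 0.95, adjusted p = 0.0458), from 10 and 207 counts. This call was lost under the replicate block (adjusted p = 0.0948), with no filter on low counts (0.0578), without young kidney 2, 3 or 4 and without old kidney 1 or 4 (log2 fold change 2.74 to 3.62, adjusted p 0.056 to 0.142), and the fold change was 5.98 without young kidney 1.

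Ugt2b38 fell in old kidney, from 71.1, 90.7, 102.7 and 74.5 CPM to 39, 25.6, 49.4 and 28.3 CPM (log2 fold change -1.21, SE 0.20, adjusted p = 0.00446, held in all 14 alternative fits). Every old kidney was below every young one. Ugt2b34 (90.9 ± 5.85 to 62.0 ± 7.31 CPM; -0.49, adjusted p = 0.0204) and Ugt1a7c (101.6 ± 13.1 to 56.1 ± 16.4 CPM, SD, n = 4; -0.79, adjusted p = 0.0469) passed the adjusted p without the fold, again with no overlap of libraries (-0.59 and -0.94 without old kidney 2). The UGT2 sum was 160.4 to 196.6 CPM in young and 85.4 to 121.1 CPM in old kidney (85.4 to 114.3 CPM without old kidney 2). Of the 5 UGT2 genes tested, however, 3 had a positive fold change, with a median of 0.62, and the lower sum was that of Ugt2b34 and Ugt2b38. Ugt2a3 (2.40) and Ugt2b5 (0.97) did not pass and turned to -0.31 and -0.20 without old kidney 2, which left 1 of the 5 positive. Ugt1a1, at 2 to 2.39 CPM in old kidneys 1, 3 and 4, 8.7 CPM in old kidney 2 and 3.4 to 5.65 CPM in the young, was called lower when old kidney 2 was left out and in no other fit run. Without that library 4 members were higher and 2 lower, against 5.9% and 2.32% of all genes, Sult2b1 and Sult5a1 passing then and Gstm6 not. Ugt3a1 (-0.40) and Ugt3a2 (-0.35) did not pass (adjusted p = 0.125 and 0.155; -0.36 and -0.29 without old kidney 2).

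No gene of 7 pathway lists was called in aged kidney. Of the UDP-sugar and sulfate donor genes 0 of 11 tested differed, of glutathione supply 0 of 10, of conjugate exporters 0 of 8, of xenobiotic regulators 0 of 18, of NRF2 reporter genes 0 of 5, of the mercapturate pathway 0 of 8 and of other conjugation enzymes 0 of 14. Summed levels of 5 of these lists were lower in every old than in every young kidney, without a test: 1136 to 1201 against 1347 to 1465 CPM for donor supply, 549.9 to 642.3 against 730.8 to 841.6 CPM for exporters, 1071 to 1181 against 1399 to 1563 CPM for regulators, 398.8 to 416.2 against 431.5 to 447.9 CPM for NRF2 reporters and 1406 to 2336 against 2356 to 2521 CPM for other conjugation enzymes. In the last list Acsm2 (-0.61, adjusted p = 0.0309) and Acsm5 (-0.70, adjusted p = 0.00624), acyl-CoA synthetases, passed the adjusted p without the fold. The sums of glutathione supply and of the mercapturate pathway overlapped. Hpgds, a prostaglandin D synthase related to the sigma-class GSTs, was higher (1.22, SE 0.33, adjusted p = 0.0394). All 9 macrophage markers were higher in old kidney, with a summed level of 526.9 to 1011 CPM against 108 to 134.5 CPM in young, as were 6 of 7 B and plasma cell markers and 4 of 5 T cell markers (summed level 11.2 to 17.7 against 2.98 to 3.65 CPM). Of 8 genes that mark cholangiocytes and stellate cells in liver 0 were called, with a summed level of 2007 to 3049 against 1525 to 1703 CPM. Their sum was only 156.3 to 282.3 CPM in young liver, so in kidney they cannot be read as markers of those liver cells. Of 9 fibroblast markers 3 were higher, with overlapping sums. Of 16 kidney segment markers 1 was lower (Slc5a12). Whether these cells carry part of the member values was not tested.

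In aged liver 4 sulfotransferases rose, and 2 UGT2 genes and 1 sulfotransferase fell, the calls of Sult2a1 and Sult2a8 being lost in 7 and 8 of 14 alternative fits. Of 50 members tested 4 were higher and 3 lower in old liver, against 1.69% and 0.439% of all genes. The 4 that rose were sulfotransferases, Sult1e1, Sult2a1, Sult2a3 and Sult2a7, and the 3 that fell were Ugt2b1, Ugt2b38 and Sult2a8. The median fold change was -0.18 for members and 0.00 for all genes, and 16 members had an unadjusted p under 0.05 (14.7% of all genes did). Groups did not overlap for 6 members that were higher and 5 that were lower (5.91% and 4.2% of all genes).

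Sult2a3 was 3.61, 0.723, 0.0746 and 2.93 CPM in young liver and 341, 244.7, 85.4 and 143.9 CPM in old liver (log2 fold change 6.80, SE 0.77, adjusted p = 0.00168). The lowest old liver was far above the highest young one, and the fold change stayed at 6.41 or more in all 14 alternative fits. Sult2a7 was 4.26, 11.1, 9.02 and 12.9 CPM in young and 75.6, 75.1, 94.9 and 166.2 CPM in old liver (3.48, SE 0.37, adjusted p = 0.00139). Sult1e1, the estrogen sulfotransferase, was 0.194, 0.181, 0.373 and 0 CPM in young liver, 11 counts, and 62.3, 7.06, 19.4 and 7.98 CPM in old liver, 1392 counts (6.97, SE 0.93, adjusted p = 0.00457). Old liver 1 was the highest for Sult1e1, and without it the fold change was 5.90 (adjusted p = 5.48e-04).

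Sult2a1 was 299.8, 43.1, 48.4 and 327.5 CPM in young and 2559, 1381, 823.9 and 1069 CPM in old liver (3.03, SE 0.68, adjusted p = 0.0451). Young livers 1 and 4 were high and young livers 2 and 3 low, and every old liver was above them. The call was lost in 7 of 14 alternative fits, among them those without any 1 of the 4 young livers or without old liver 2 or 3 (adjusted p 0.0628 to 0.116), with a fold change of 2.60 to 3.54 over all 14. Sult2a2 was 419.9, 120.6, 117.8 and 491.4 CPM in young and 1729, 1156, 714.4 and 963.4 CPM in old liver and did not pass (2, adjusted p = 0.0619), nor did Sult2a5, at 11.8, 2.23, 1.12 and 10.9 against 22.9, 74.5, 22.2 and 77.8 CPM (2.93, adjusted p = 0.0544). These 2 genes had no overlap between ages either and passed with DESeq2. The same 2 young livers were high for Sult2a1, Sult2a2, Sult2a3 and Sult2a5. Sult3a1 had the opposite order in the young livers (173.6, 274.7, 530.9 and 126.1 CPM) and stood at 91.1, 29.4, 77.3 and 153.7 CPM in old liver (-1.63, adjusted p = 0.132).

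Sult2a8 went the other way within the same cluster, from 929.1, 1209, 1213 and 1256 CPM in young to 587.5, 304.1, 191 and 573 CPM in old liver (-1.46, SE 0.33, adjusted p = 0.0458). Each old liver was below each young liver. The call was lost in 8 of 14 alternative fits, under the replicate block (adjusted p = 0.0694), with a mean of at least 1 CPM as the filter (0.055) and without any 1 of the 4 young livers or old liver 2 or 3 (adjusted p 0.0739 to 0.129; log2 fold change -1.54 to -1.23). The SULT2 sum was 1387 to 2102 CPM in young and 1933 to 5318 CPM in old liver and overlapped.

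**Figure D3:**
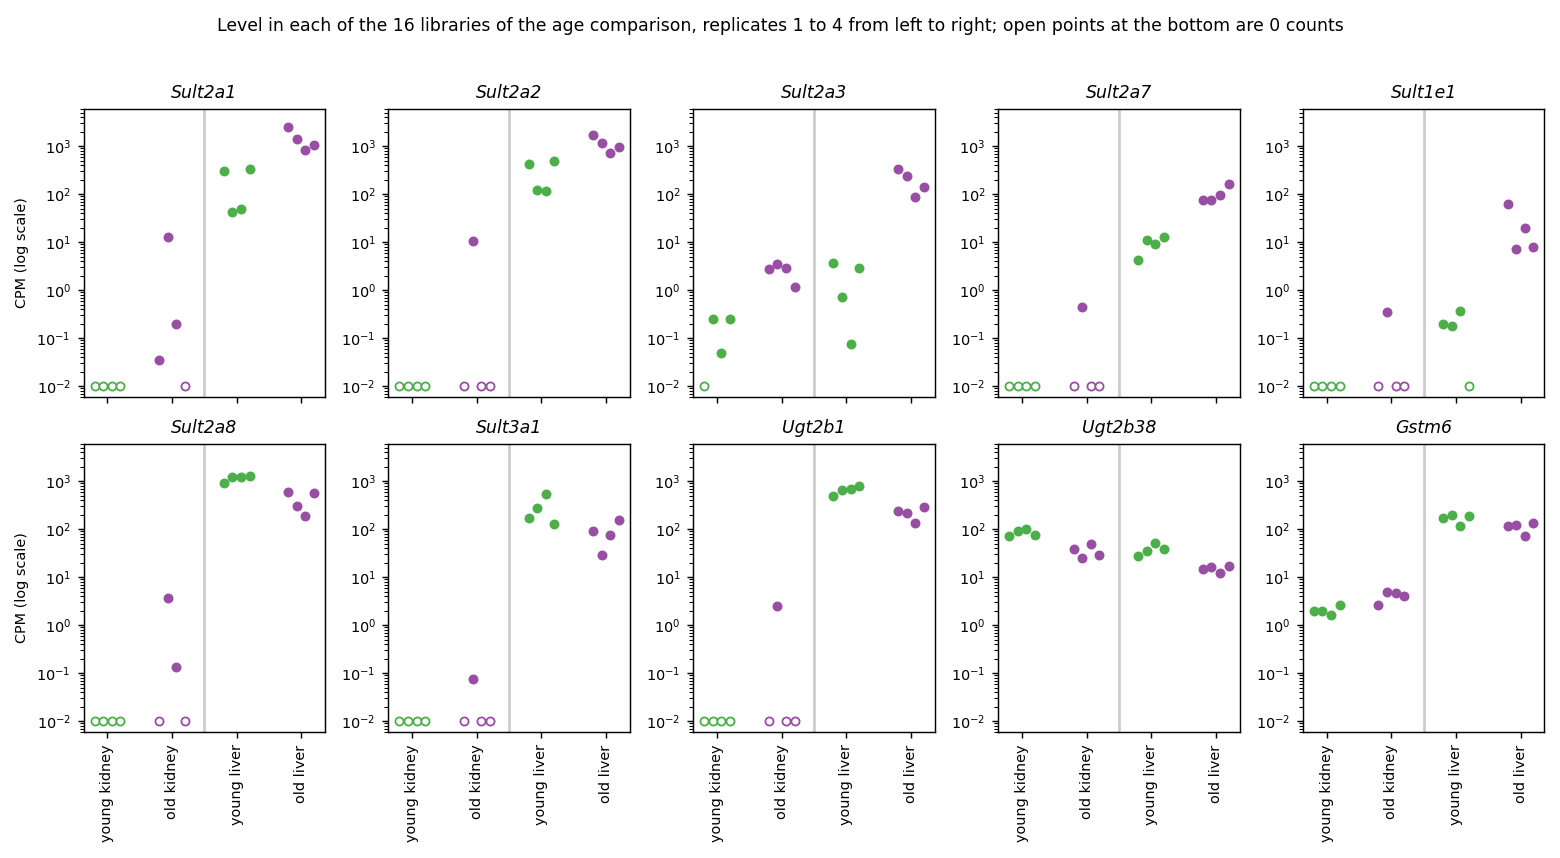
CPM on a log axis of the members called in an age comparison, Sult4a1 left out, and of Sult2a2 and Sult3a1, in each of the 4 young and 4 old libraries of kidney and of liver, replicates 1 to 4 from left to right. Open points at the bottom are libraries with 0 counts. Sult2a3 rises in both tissues from near 0, Ugt2b38 falls in both, and Sult2a8 falls in liver while old kidney 2 alone among the kidneys stands above 1 CPM for it.

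Ugt2b1, a steroid and drug glucuronidating enzyme, fell in old liver from 494, 666.3, 682.6 and 779.4 CPM to 244.5, 216.7, 134.2 and 286 CPM (log2 fold change -1.56, SE 0.25, adjusted p = 0.012). Ugt2b38 fell from 27.2, 34.5, 52.2 and 38.2 CPM to 14.8, 16, 12.5 and 16.9 CPM (-1.32, SE 0.21, adjusted p = 0.012). Both calls held in all 14 alternative fits and neither gene's libraries overlapped. Ugt2b35 passed the adjusted p only (211.6 ± 31.0 to 120.2 ± 12 CPM, SD, n = 4; -0.80, adjusted p = 0.0342). The UGT2 sum was 3752 to 5976 CPM in young and 1824 to 3484 CPM in old liver, and 7 of 8 UGT2 genes tested had a negative fold change. The UGT1A sum overlapped, and 0 of its 6 genes tested passed, as for 0 of 20 GST genes tested. Among GSTs 3 had an unadjusted p under 0.05, namely Gstm2 (0.51), Gstp3 (0.60) and Gstm6 (-0.60), with adjusted p of 0.277, 0.338 and 0.224.

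**Figure D4:**
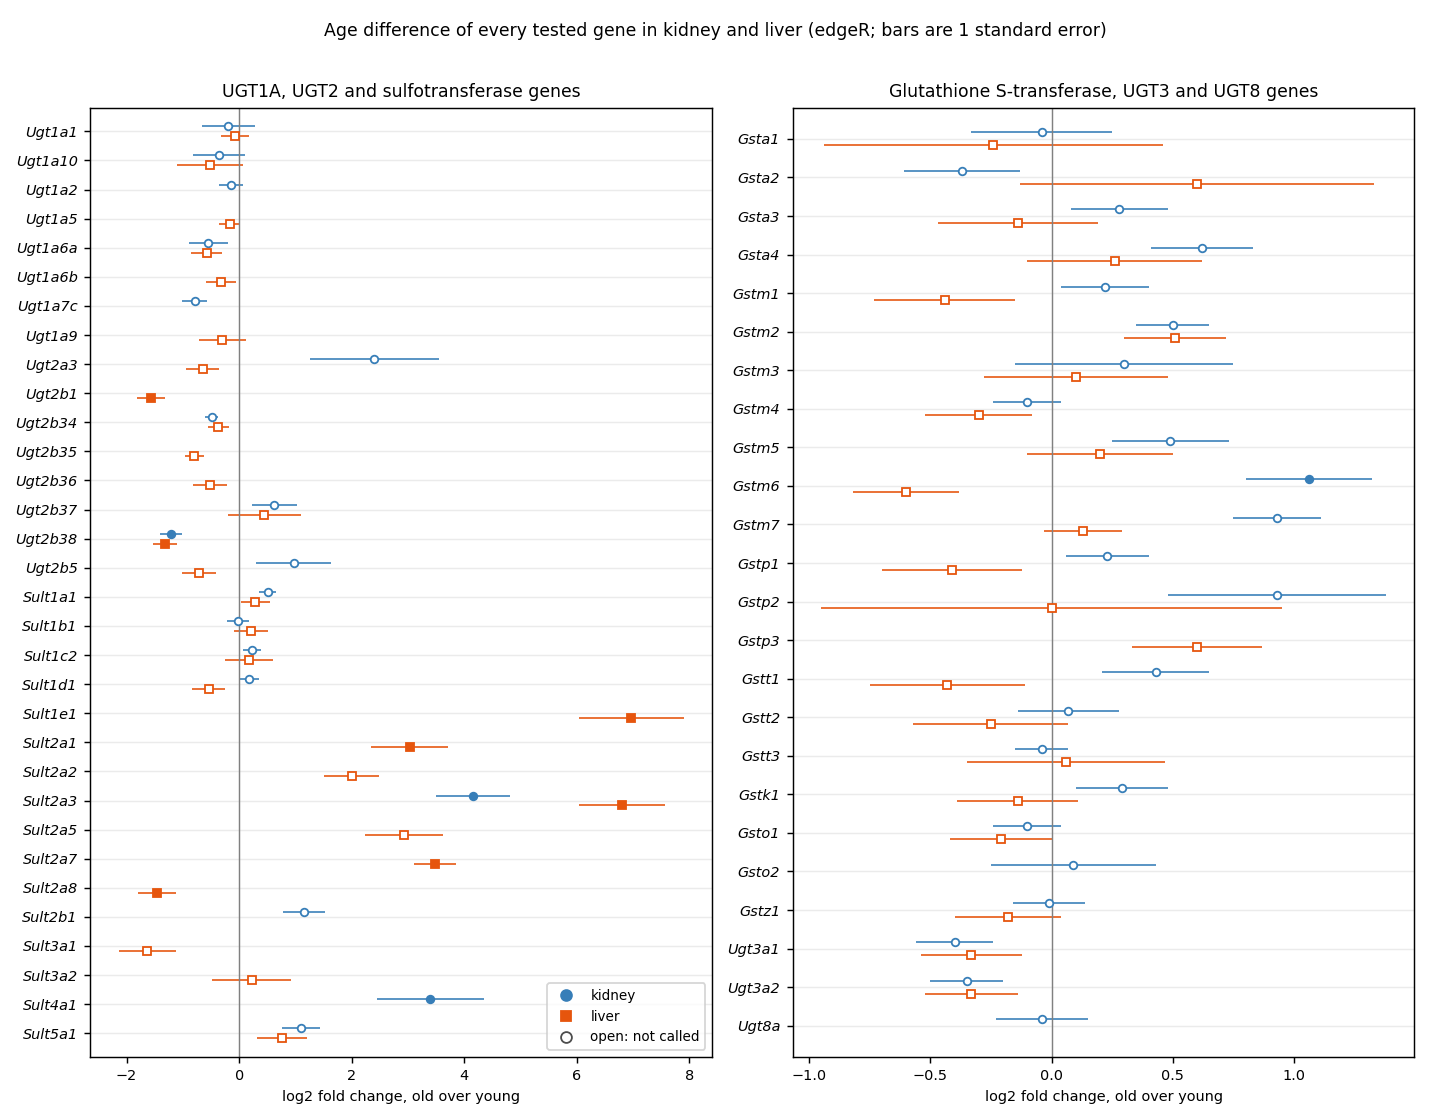
Log2 fold change of old over young with 1 standard error for every tested member, kidney as circles and liver as squares, filled where the adjusted p was under 0.05 and the change more than 2-fold. The filled points are Sult2a3, Gstm6, Sult4a1 and Ugt2b38 in kidney and Sult1e1, Sult2a1, Sult2a3, Sult2a7, Sult2a8, Ugt2b1 and Ugt2b38 in liver, and most GST genes lie near 0.

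Several of these sulfotransferases are known to differ between the sexes in mouse liver, so lists of sex-biased liver genes were read beside them. Of 9 tested male-biased genes 6 were lower in old liver (Mup20, Cyp2d9, Slco1a1, Hsd3b5, Selenbp2 and Nudt7) with a list median of -2.19, Slco1a1 going from 195.1 to 589.1 CPM in young down to 1.37 to 2.09 CPM in old liver. Of 13 female-biased genes 4 were higher (Cyp3a41a, Cyp3a44, A1bg and Adcy1) and 1 lower (Fmo2), with a list median of 0.51, A1bg going from 78.7 to 1428 CPM up to 4682 to 16869 CPM. Their part in the member values was not tested. Of the pathway lists, Cyp3a11, a PXR target, was lower in old liver, going from 3360 to 5906 CPM in young to 63.8 to 800 CPM in old (-3.52, adjusted p = 0.0177). It was 1 of 6 AHR and CAR/PXR reporter genes (list median -0.31), with Cyp1b1 at 1.46, Tiparp at 0.95 and Cyp2b10 at 0.39 not passing. Hmox1 was higher (1.29, adjusted p = 0.00852), 1 of 5 tested NRF2 reporter genes (list median 0.08). The exporter Abcc4 was higher (1.53, adjusted p = 0.0366), 1 of 8 exporters (list median 0.12). Nnmt, a methyltransferase, was higher (1.90, adjusted p = 0.0482), 1 of 14 other conjugation enzymes, of which Acsm2 was lower. By contrast 0 of 10 donor supply genes, 0 of 11 glutathione supply genes and 0 of 18 regulators passed. Of immune cell markers 3 of 9 of macrophages (Cd68, Lyz2 and Itgam) and 4 of 6 tested of B and plasma cells (Cd79a, Ms4a1, Jchain and Mzb1) were higher in old liver. The summed macrophage level was 688 to 1058 CPM in young and 1056 to 2144 CPM in old liver, with overlap. Jchain, of plasma cells, was 0.774 to 1.79 CPM in young and 15.7 to 82.5 CPM in old liver without overlap (5.16, adjusted p = 0.00139), while the summed B and plasma cell level (291.5 to 410.8 and 311.8 to 586.7 CPM) was mostly Xbp1, a gene abundant in liver itself (mean 342.8 and 373.2 CPM). Of 4 tested T cell markers 0 passed, with a summed level of 3.06 to 4.81 CPM in young and 5 to 9.8 CPM in old liver. Their part in the member values was not tested.

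The age differences themselves were compared between the tissues in 1 fit of the 16 libraries. Of 56 members tested 2 differed, against 1.72% of all genes. Gstm6 was higher with age in kidney, given above, and 171.9, 194.6, 116.9 and 188.8 CPM in young against 114.4, 119.4, 72.5 and 133.1 CPM in old liver, a difference of the log2 fold changes, kidney minus liver, of 1.61 (SE 0.33, adjusted p = 0.0199). This was lost without young kidney 3 (adjusted p = 0.0529). Ugt1a7c was lower with age in kidney, given above, and was 0.0603 to 0.387 CPM in young and 0.283 to 1.3 CPM in old liver (-2.54, SE 0.60, adjusted p = 0.0426), and it passed in 9 of 22 alternative fits, losing the call without any young kidney, any young liver, old kidney 3 or 4 or old liver 2 or 3 (adjusted p 0.0571 to 0.127) and under the replicate block (adjusted p = 0.0846). For the other 54 members tested the difference between the tissues did not pass, Sult2a3 and Ugt2b38 included.

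Open chromatin was read as the number of the 3 libraries of a group with a peak within 1 kb of a start site. All 3 libraries had a peak at 33 members in young kidney (51.6%; 59.7% of 24534 genes), 30 in old kidney (46.9%; 57.9%), 39 in young liver (60.9%; 53.9%) and 25 in old liver (39.1%; 53.5%). Of the 36 members higher in young liver 26 had a peak in all 3 young livers and 17 in all 3 young kidneys. Of the 10 higher in young kidney 9 had a peak in all 3 young kidneys and 7 in all 3 young livers. Ugt1a2 had peaks in 6 of 6 kidneys (fold enrichment 3.75 to 5.663) and 1 of 6 livers (2.4), Ugt1a5 in 1 of 6 kidneys and 5 of 6 livers, Ugt1a1 in all 12 libraries, and Ugt8a and Ugt2b38 in kidney libraries alone, Ugt2b38 in 3 young and 2 old kidneys.

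Fewer members had peaks in all 3 libraries in old than in young liver, 25 against 39, and 17 against 21 when a −log10 q of at least 5 was asked of each peak. The number of libraries with a peak was smaller in old liver for 18 members (28.1%, against 8.49% of all genes) and larger for 5 (7.81%, against 8.79%), and in kidney it was smaller for 9 (14.1%, against 8.18%) and larger for 1 (1.56%, against 4.33%). Sult3a1 had peaks in 3 of 3 young livers (4.155, 3.453 and 3.889-fold) and 0 of 3 old livers, as did Ugt1a10, and Gstm3 had them in 3 young and 0 old kidneys. Sult2a7, which rose, had a peak in 1 of 3 young and 3 of 3 old livers (3.039, 3.029 and 3.994-fold). Ugt2b1, which fell, had peaks in 3 young livers (2.333, 3.203 and 3.509-fold) and 1 old liver (1.92-fold), and Sult2a8 in 3 young and 2 old livers. Of the others that rose, Sult2a1 had a peak in 1 young and 0 old livers, Sult1e1 in 0 young and 1 old, and Sult2a3 in 1 of each age. Sult2a2, Sult2a4, Sult2a5 and Sult2a6 had 0 in all 12 libraries. Peaks were called in each library on its own, so a missing peak can lie just under the caller's threshold, and no test of the peaks was run. The study's methods also dropped ATAC-seq reads that did not map to a single place. Peaks can therefore be missed at close copies such as the Sult2a genes, and how far this held was not tested.

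**Figure D5:**
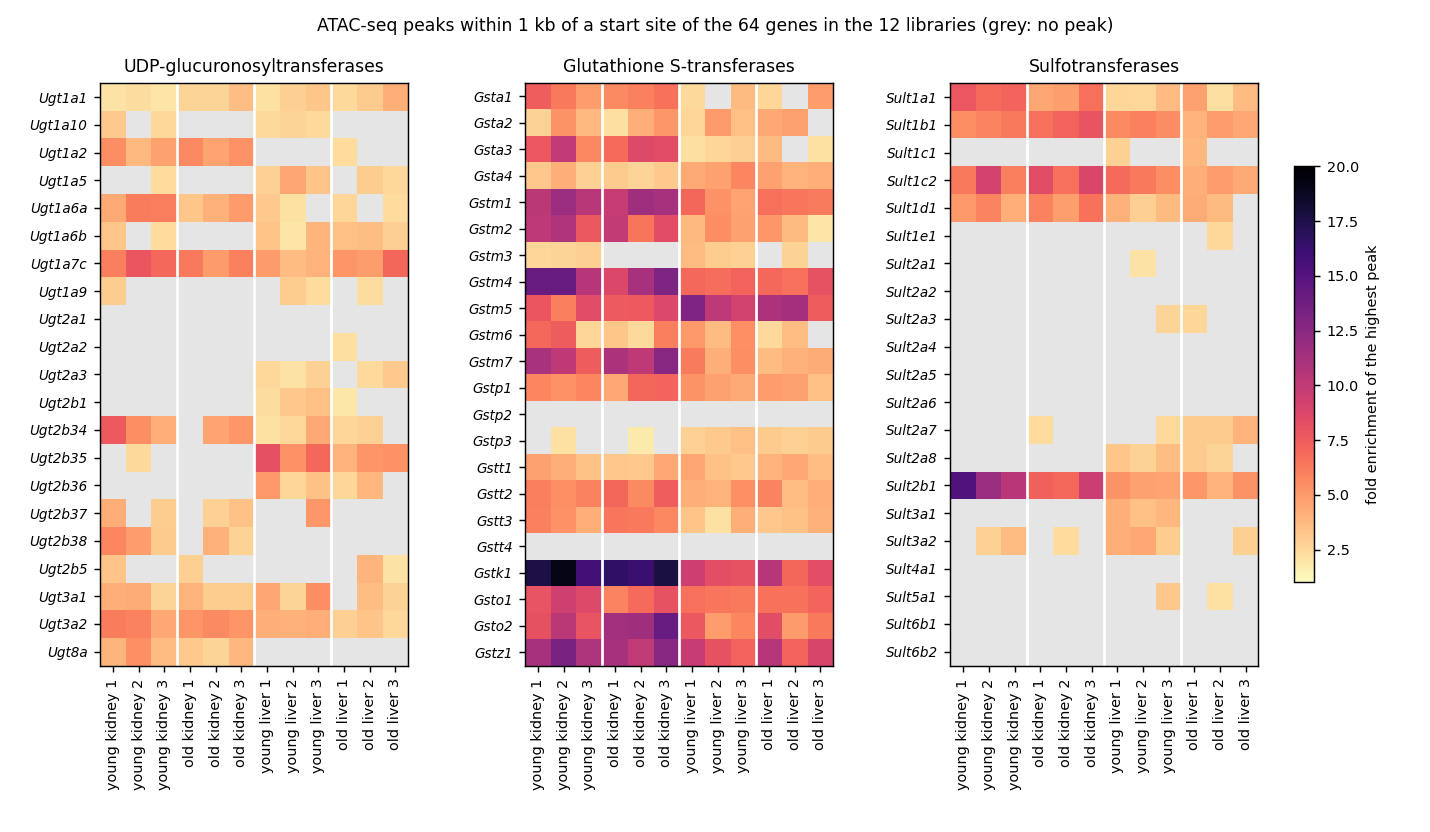
Fold enrichment of the highest ATAC-seq peak within 1 kb of a start site for the 64 genes (rows) in the 12 libraries (columns), grey where no peak was called. Most GST rows are filled in every library, the Sult2a rows are mostly grey, and Ugt8a and Ugt2b38 are filled in kidney only.

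In skin fibroblasts 3C changed 1 member. Of 21 tested, Gstt1, a theta-class GST, rose from 11, 7.79 and 11.2 CPM with DMSO to 22.6, 27.5 and 29.7 CPM with 3C (log2 fold change 1.42, SE 0.18, adjusted p = 0.00184, held in 12 of 12 alternative fits), against 1.23% of all genes higher and 0.632% lower. The 2 groups did not overlap. Gstm1 (88.8 ± 11.2 to 140.3 ± 21.8 CPM; 0.66, adjusted p = 0.0328) and Gsta4 (38.7 ± 5.18 to 61.4 ± 13.1 CPM, SD, n = 3; 0.66, adjusted p = 0.0458) passed the adjusted p without the fold. Gsto1, the leading member of these cells, was 1551, 1397 and 1455 CPM with DMSO and 827.6, 845.8 and 1208 CPM with 3C, without overlap and without passing (-0.61, SE 0.17, adjusted p = 0.0692). Of the 21, 9 had an unadjusted p under 0.05 (20.2% of all genes did), the others being Gstt3 (0.55), Gstm6 (0.41), Gstm7 (0.65), Gsto2 (-0.51) and Sult4a1 (-0.79). The GSTA, GSTT and SULT1 sums were higher and the other GST and other SULT sums lower with 3C without overlap, the SULT1 sum at a mean of 0.106 and 1.06 CPM. Of the pathway genes the exporter Abcc6 (2.99, adjusted p = 0.0182) and Ggt5 (1.06, adjusted p = 0.0144) were higher, and 0 of 6 NRF2 reporter genes passed. All 6 had a negative fold change (list median -0.37), and their summed level was 586.3 to 739.6 CPM with DMSO and 484.8 to 556.5 CPM with 3C. Summed macrophage markers were 296.9 to 391.5 CPM with DMSO and 120.9 to 188.8 CPM with 3C, and their part was not tested.

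In the mice of 20 to 21 months no member passed after 3C. In kidney 0 of 39 members tested were called by edgeR or by DESeq2, beside 0% of all genes by edgeR and 5 of 14962 by DESeq2, and 8 had an unadjusted p under 0.05 (11.9% of all genes did): Sult2a3 (0.68, from 1.11 to 1.67 CPM with DMSO and 1.58 to 2.36 CPM with 3C), Ugt1a6a (0.69), Sult1b1 (0.48), Ugt2b38 (0.48), Ugt1a7c (0.36), Ugt2b34 (0.33), Sult1d1 (0.27) and Sult2b1 (-0.54). Their adjusted p were 0.233 to 0.39. Sult1b1 and Gstm7 were the only 2 members whose libraries did not overlap, both higher (3.65% of all genes were). Summed macrophage markers were 453.3 to 496.7 CPM with DMSO and 280.5 to 434.6 CPM with 3C in kidney, and fibroblast markers 358 to 475.1 and 188.2 to 317.8 CPM, with 0 of 9 called in each list. In liver 0 of 52 members tested were called by either tool, 0 had an unadjusted p under 0.05, and fold changes ran from -0.99 (Sult2a7, SE 0.70) to 1.11 (Sult1e1, SE 0.88). The 3C effect differed between kidney and liver for 0 of 57 members by either tool, with 1 unadjusted p under 0.05 (Sult2a2). Summed T cell markers were 6.74 to 10.2 CPM with DMSO and 3.28 to 4.46 CPM with 3C in liver, with 0 of 5 called, and the part of these cells in the member values was not tested. Standard errors of the fold changes were 0.05 to 0.51 in kidney and 0.11 to 1.31 in liver, and differences under 2-fold could not be called in either tissue by the threshold used.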

How the data were processed

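RNA-seq and ATAC-seq of the 50 libraries described above were analysed from the deposited files. Per the labels and the study's methods, reads were trimmed (Trimmomatic 0.39), aligned to mm10 (HISAT2 2.2.1) and counted per gene without regard to strand (HTSeq 0.12.4), reads of several positions or genes being left out, and the authors deposited these raw counts per gene. ATAC-seq reads were aligned with Bowtie2 and peaks were called per library with MACS2, and the deposited peak files give the fold enrichment (a ratio) and the −log10 of the q-value, which were used as given. Tally lines that name no gene were kept out of library sizes.

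Groups were compared with edgeR 4.0.16 (R 4.3.3): quasi-likelihood F test, TMM, filterByExpr with a minimum count of 10, all genes, Benjamini-Hochberg, calls at adjusted p under 0.05 and more than 2-fold or less than 0.5-fold (interactions: adjusted p alone). Only the groups compared entered each fit. CPM used TMM library sizes within each of the 3 sets of libraries. The tests were tried on simulated counts. Family sums and peaks were described with no test. Intervals and floors cover counting error only. Genes were named by a rule: members past both thresholds, up to 15 per direction, the 2 most abundant members of each family, members of either interaction, and pathway lists. The members and lists were chosen with earlier results of these data known.

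Replicate numbers were read as pairing libraries only where every same-numbered pair's deviations from the group means correlated above 0.1. This held for young kidney with young liver (4 of 4 pairs, 0.185 to 0.633) and 3C kidney with 3C liver (4 of 4, 0.136 to 0.267). The main fits used no pairing, that of young kidney and liver included, so the standard errors and adjusted p given above leave it out. A replicate block was run only as an alternative, in every comparison. Alternatives were another scaling, DESeq2 1.42.0, other filters, no fold threshold, a replicate block, each library left out, and for peaks a narrower window, a stricter q and each library left out.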

Additional observations from a re-analysis of the deposited data

Results flagged for a closer look

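Of 118 sets of 4 libraries tested for a library far from the other 3 (Dixon's test at the 95% level; 96 family sums and 22 single members), 10 stood out, and chance gives about 1 in 20. Young kidney 4 was the highest for the GSTA sum (1019 CPM, others 710.6 to 717.7), the GSTT sum (376.8 CPM, others 258.8 to 260.9) and the sum of other GST genes (380.4 CPM, others 292.3 to 306.0). Young kidney 3 was the highest for the SULT1 sum (927.3 CPM, others 594.2 to 634.7). Young kidney 1 was the highest for Sult4a1 (0.339 CPM, others 0 to 0.0317). Old kidney 2 was the highest for the SULT2 sum (32.6 CPM, others 4.22 to 5.92), beside its hepatocyte transcripts given above. Old kidney 4 was the highest for the sum of other SULT genes (3.59 CPM, others 2.3 to 2.45), old liver 3 for the UGT8 sum (0.479 CPM, others 0.0566 to 0.0960) and DMSO kidney 1 for the sum of other GST genes (303.3 CPM, others 265.4 to 269.8). Young liver 1 was the lowest for Sult2a8 (929.1 CPM, others 1209 to 1256).

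The age difference was not the same in the 2 tissues for 2 members by the test of that difference: Gstm6, with 1.61 on the log2 scale, kidney minus liver, and Ugt1a7c, with -2.54.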

How the results depend on the processing

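No called member's fold change turned its direction under any alternative run. Of all members tested, called or not, the direction turned in at least 1 alternative for 13 of 41 between the ages in kidney, 12 of 50 in liver, 4 of 21 in fibroblasts, 14 of 39 and 36 of 52 after 3C in kidney and liver, 0 of 53 and 3 of 56 between the tissues in the young and DMSO mice, and 23 of 56 and 28 of 57 for the differences between tissues of the age and 3C effects. In kidney the 4 members called between the ages became 2 under the replicate block, 7 without the fold threshold and 2 to 7 with 1 library left out (2 without young kidney 2 or old kidney 4, 7 without young kidney 4), while the share of all genes called went from 6.08% to 4.88%, 11.5% and 4.18 to 8.22%. In liver the 7 became 5 to 10, with 8 under the block and 10 with DESeq2 or without the filter, where 1.11, 4.75 and 1.97% of all genes were called against 2.13%. In fibroblasts the 1 became 2 without the filter, 3 without the fold threshold and 1 to 2 with 1 library left out (2 without 3C fibroblast 1), where 1.82, 4.22 and 0.852 to 1.81% of all genes were called against 1.87%. The 2 members whose age difference differed between the tissues became 7 with DESeq2, 1 under the replicate block and 0 to 3 with 1 library left out (0 without young kidney 3), where 4.97, 0.918 and 0.749 to 2.99% of all genes were called against 1.72%. The tissue counts stayed at 43 to 50 in the young mice, with 46 under the block that pairs these libraries, and at 49 to 53 in the DMSO mice, and the 3C counts in tissue stayed at 0. Peaks in all 3 young livers fell from 39 members to 21, and in all 3 old livers from 25 to 17, when a −log10 q of at least 5 was asked. Family sums that did not overlap numbered 31 of 84, and 28 to 32 under other scalings. Members with few counts, such as Sult4a1 in kidney, and the number of libraries limit what could be detected. Paired fits for groups of different mice share a number only, and the block there changed the counts as given.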
